A study of Canis lupus familiaris with 18 samples.

Results

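RUNX2, its chromosomal neighbour SUPT3H and its binding partner CBFB were followed across 18 primary osteosarcomas of dogs, 9 from animals whose serum alkaline phosphatase (ALP) was normal and 9 from animals in which it was increased. The set holds every probe set that the platform annotation assigns to exactly 1 of these 3 genes, which gave 10 of 42924 probe sets other than controls: 5 for RUNX2, 3 for SUPT3H and 2 for CBFB. Each tumour was measured once on a 1-colour Affymetrix canine array, from total RNA of snap-frozen tissue, and no normal bone was included. Apart from the serum enzyme, the labels give no age, breed, treatment, tumour site or batch for either group. The set was proposed with a measured difference of SUPT3H between the ALP groups already known, and its genes count as chosen by that contrast, so the levels in those groups are given as a description and without a test.

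RUNX2 is the transcription factor that commits mesenchymal cells to the osteoblast lineage, and it switches on genes of bone matrix and mineralization. It binds DNA poorly on its own and gains affinity and stability when paired with CBFB, a subunit shared by all RUNX proteins that does not touch DNA itself. SUPT3H is a subunit of SAGA, a large co-activator complex that acetylates and deubiquitinates histones at promoters. In RefSeq (assembly UU_Cfam_GSD_1.0), SUPT3H and RUNX2 are adjacent and their annotated spans overlap, while CBFB lies on another chromosome. The probe sets are called here R1 to R5 for RUNX2, S1 to S3 for SUPT3H, and C1 and C2 for CBFB, in falling order of their mean level. The annotation places R1 and R4 under the gene identifier 449531, and R2, R3 and R5 under 474923, of which only the former was found in the RefSeq table. Those of the _s_at type (R1, R2, S1, S2 and C1) may match more than 1 transcript.

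Levels are log2(signal + 16), which understates changes in dim probe sets, and a filter kept probe sets whose mean over all 18 arrays reached 6.15, the 40th percentile. Of the 10 probe sets, 7 passed. Those below it were RUNX2 R5 with a mean of 5.47, SUPT3H S3 with a mean of 4.58, and CBFB C2, whose mean of 6.13 lay just under the filter, while RUNX2 R4 lay just above it at 6.20. Each gene was represented by its probe set of highest mean, R1, S1 and C1.

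The arrays had medians between 6.25 and 6.31, and their number limits the precision of every comparison. The tissue carried osteoblast transcripts, with 9 of 13 osteoblast markers above the filter and a mean over those 9 of 9.02 to 11.80 with normal ALP and 8.60 to 12.37 with increased ALP. The 3′ minus middle probe set of actin, a measure of RNA degradation, was higher with increased ALP (1.79 ± 0.29, SD, n = 9) than with normal ALP (1.39 ± 0.17, SD, n = 9). Increased ALP tumours 3 and 6 stood apart in the BioB spike-in controls, at 10.34 and 9.89, against 8.33 to 9.21 in the other tumours. In tumour tissue, fewer cells of a type and less RNA per cell cannot be told apart.

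Of the 3 genes, SUPT3H had the largest difference between the ALP groups at its brightest probe set, higher in the increased ALP tumours. At S1, the 9 normal ALP tumours read 9.64, 9.51, 9.37, 9.49, 9.47, 9.47, 9.05, 10.28 and 9.88 in the order of their numbers. The 9 increased ALP tumours read 9.86, 9.62, 10.96, 10.20, 10.67, 9.74, 9.59, 10.44 and 11.57. All 9 of the latter exceeded the normal mean, but only 4 exceeded the highest normal value, so the groups overlapped. With normal ALP the mean was 9.57 ± 0.34 (SD, n = 9) and with increased ALP 10.30 ± 0.68 (SD, n = 9). They differed by 0.72 ± 0.24 (SE), or 1.65-fold. Leaving out 1 tumour at a time moved this difference between 0.56, without increased ALP tumour 9, and 0.81, without increased ALP tumour 7.

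The second bright SUPT3H probe set, S2, showed the same direction. It spanned 7.53 to 9.06 (median 8.48) with normal ALP and 8.44 to 10.74 (median 9.45) with increased ALP, a difference of 1.08 ± 0.30 (SE, n = 9 each). Of the 9 increased ALP tumours, 6 lay above the highest normal value. The dim S3 read 4.50 to 4.82 in all 18 tumours and differed by 0.014 ± 0.038 (SE), so it varied little.

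The SUPT3H difference was smaller with the actin measure as a covariate, at 0.55 for S1 and 0.51 for S2. With the GAPDH 3′ minus middle measure as a covariate it was 0.71 and 0.87. Without increased ALP tumours 3 and 6 it was 0.71 and 0.80. All 7 neutrophil markers measured were higher with increased ALP, with a list mean of 6.36 to 7.79 against 6.46 to 9.11, as were all 8 T and NK cell markers (6.14 to 7.69 against 6.35 to 7.75), all 9 endothelial markers (7.77 to 10.10 against 8.27 to 10.15) and all 6 fat cell markers (6.86 to 8.85 against 7.72 to 10.65). In the other lists, 5 of 9 osteoblast, 6 of 9 macrophage, 2 of 7 cartilage, 1 of 6 osteoclast and 1 of 9 skeletal muscle markers were higher. Over all probe sets tested the share was 51.5%. The part of any of these cell types in the SUPT3H difference was not tested. Across all 25754 probe sets, 0% were called between the ALP groups by limma at an adjusted p under 0.05, either direction, and 1582 had an unadjusted p under 0.05.

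RUNX2 levels overlapped widely between the ALP groups. At R1, the normal ALP tumours read 6.97, 7.62, 6.04, 7.29, 7.52, 7.33, 6.34, 7.30 and 6.95, and the increased ALP tumours read 6.47, 6.09, 7.52, 7.78, 8.47, 6.25, 6.98, 7.48 and 7.48. Both groups held low tumours near 6 and tumours above 7.5, and the ranges overlapped almost entirely. With normal ALP the mean was 7.04 ± 0.53 (SD, n = 9) and with increased ALP 7.17 ± 0.78 (SD, n = 9), so that they differed by 0.13 ± 0.30 (SE). Without increased ALP tumour 5, the highest of all, the difference was -0.03. The signal differed 6.80-fold between the lowest and the highest tumour, and 86.3% of the probe sets tested had a smaller SD.

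At the other RUNX2 probe sets the differences were smaller than at S1 and S2, and most lay above 0. They were 0.26 ± 0.15 (SE) at R4, 0.25 ± 0.12 at R3, 0.10 ± 0.15 at R2 and -0.02 ± 0.18 at R5, with 9 tumours in each group. At R3 and at R4, 7 of the 9 increased ALP tumours lay above the normal mean.

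The CBFB ranges of the groups overlapped widely. At C1, the normal ALP tumours lay between 6.45 and 8.28 (median 7.13) and the increased ALP tumours between 6.28 and 7.37 (median 6.84). The mean was 7.06 ± 0.61 (SD, n = 9) with normal and 6.84 ± 0.37 (SD, n = 9) with increased ALP, an increased minus normal value of -0.22 ± 0.23 (SE). Normal ALP tumour 2 alone was above 8. C2 gave -0.31 ± 0.21 (SE). With the GAPDH 3′ minus middle measure as a covariate these differences were -0.02 and -0.10.

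**Figure D1:**
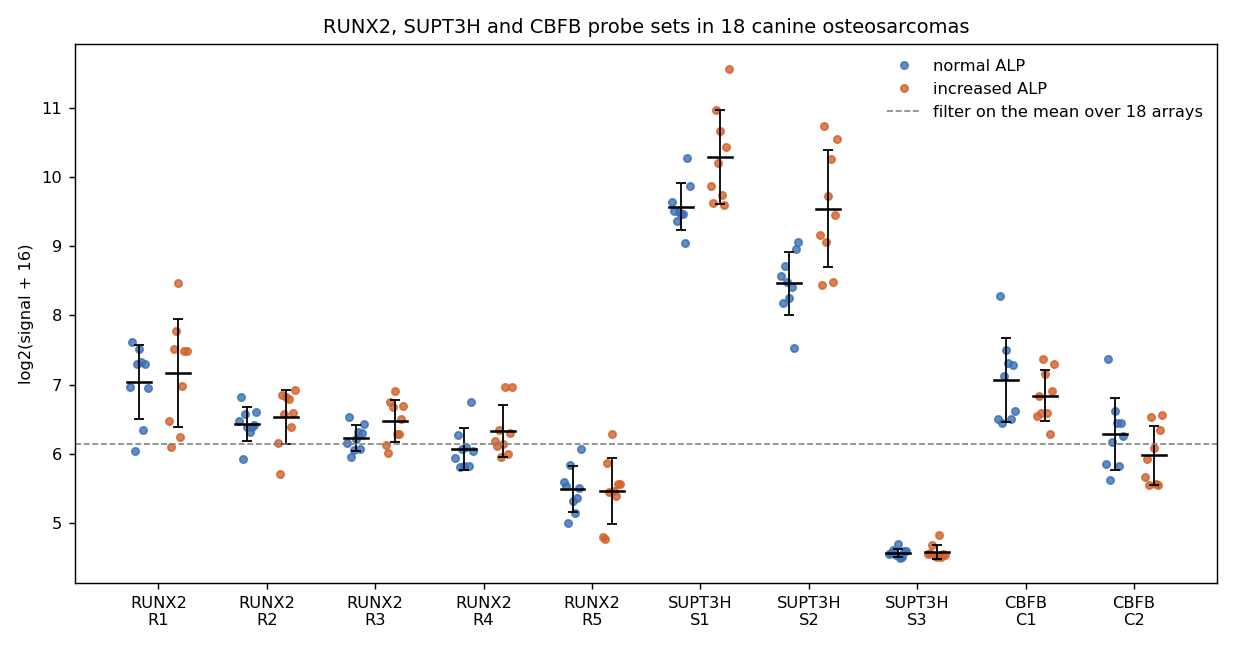
Levels of the 10 probe sets of RUNX2, SUPT3H and CBFB on the log2(signal + 16) axis, 1 point per tumour, coloured by serum ALP group, with the mean and SD of 9 tumours as bars and the filter at 6.15 as a dashed line. The 2 bright SUPT3H probe sets lie higher with increased ALP (differences of 0.72 and 1.08) with overlapping groups, while the RUNX2 and CBFB points overlap throughout.

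The probe sets of a gene did not all rank the tumours alike, which limits what can be said from any single one. The following correlations across 18 tumours are descriptions, since probe sets of a gene share the array and in part the transcript. RUNX2 R1 followed R3 (Pearson r = 0.81), R5 (0.66) and R2 (0.66). It had almost no relation to R4 (r = 0.08), although both carry the same gene identifier. At R4 the highest tumours were increased ALP tumours 6 and 9 (6.97 and 6.96) and normal ALP tumour 8 (6.75), of which tumour 6 was among the lowest at R1 (6.25). The bright SUPT3H probe sets ran together (r = 0.85), and so did both CBFB probe sets (r = 0.94). The dim SUPT3H probe set had r = 0.02 with S1.

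**Figure D2:**
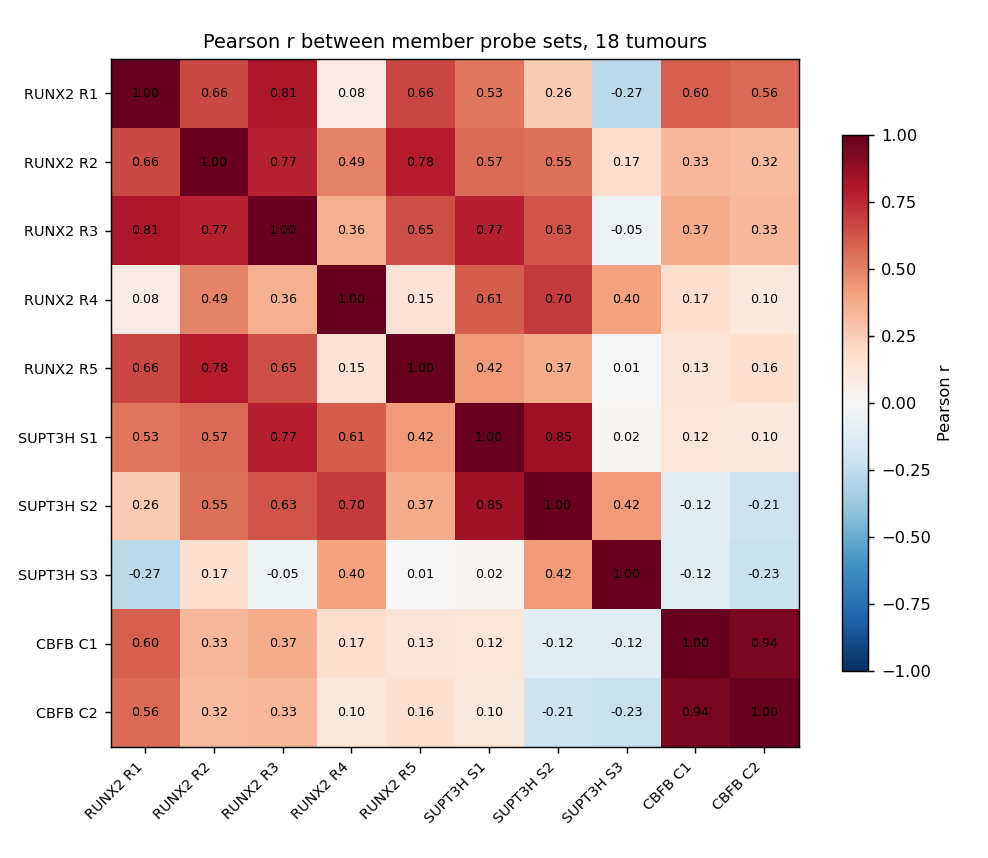
Pearson r between the levels of the 10 probe sets over 18 tumours, from -1 (blue) to 1 (red). CBFB forms a tight pair (0.94), the bright SUPT3H probe sets correlate at 0.85, and RUNX2 R4 stands apart from R1 (0.08).

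The next comparison asked whether RUNX2 and SUPT3H vary together from tumour to tumour. At their brightest probe sets, Pearson r was 0.533 (permutation p = 0.0224) and Spearman's rho was 0.424 (permutation p = 0.0794). Adjusted over the 9 relations tested, these p-values were 0.0672 and 0.179, so the relation did not pass at this pair of probe sets. Normal ALP tumours 3 and 7 were low in both, and increased ALP tumours 3, 5, 8 and 9 were high in both. Other tumours departed from this. Increased ALP tumours 2, 6 and 1 were low in RUNX2 (6.09, 6.25 and 6.47) with SUPT3H of 9.62, 9.74 and 9.86, in the middle of its range. Normal ALP tumours 2, 5 and 6 had RUNX2 of 7.33 to 7.62 and SUPT3H of only 9.47 to 9.51. Within the groups, r was 0.401 with normal ALP (exact permutation p = 0.287, n = 9) and 0.655 with increased ALP (exact permutation p = 0.0557, n = 9). Without the 2 tumours farthest from the RUNX2 median, normal ALP tumour 3 and increased ALP tumour 2, r was 0.492 (permutation p = 0.0530).

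The relation was closer at some other probe sets of the same genes and weaker at others. All 10 pairings of a RUNX2 probe set with a bright SUPT3H probe set gave r above 0, from 0.258 to 0.774. The 5 pairings with the dim SUPT3H probe set ran from -0.269 to 0.404, and 2 of them lay below 0. Of the 15 pairings, 4 had an adjusted p under 0.05 when put in place of the brightest pair. They were R3 and R4, each with S1 and S2. This adjustment covered the 9 relations and not the choice among the 15 pairings. Both R4 and R3, with a mean of 6.35, lay near the filter. Without increased ALP tumours 6 and 9, R4 with S2 fell from 0.696 to 0.465 (permutation p = 0.0747). The closest of the 15 was R3 with S1, at r = 0.774 (adjusted permutation p = 0.00135) and rho = 0.726. There r was 0.461 within normal ALP (exact permutation p = 0.212, n = 9), 0.779 within increased ALP (exact permutation p = 0.0138, n = 9) and 0.702 without increased ALP tumours 3 and 5 (permutation p = 0.00137). Taking out the difference between the ALP group means at the brightest pair raised r from 0.533 to 0.585 (adjusted permutation p = 0.0464). With the actin measure as a covariate it was 0.677 (adjusted permutation p = 0.0195). Whether the relation differs between the ALP groups was not tested.

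At their brightest probe sets, RUNX2 and its partner CBFB were related more by rank than by size. Spearman's rho was 0.728 (permutation p = 0.00097, adjusted 0.00873), and Pearson r was 0.60 (permutation p = 0.00784, adjusted 0.0672). Within normal ALP r was 0.820 (exact permutation p = 0.00561, n = 9), and within increased ALP it was 0.578 (exact permutation p = 0.105, n = 9). Without normal ALP tumour 3 and increased ALP tumour 2, r was 0.594. The other RUNX2 probe sets followed C1 less closely. Pearson r was 0.37 at R3, 0.33 at R2, 0.17 at R4 and 0.13 at R5, with rho of 0.50, 0.31, 0.27 and 0.11. CBFB and SUPT3H, which share neither a locus nor a complex, had r = 0.124 (permutation p = 0.615). The RNA quality measures were set against each gene as well, and over all 18 tumours no such relation passed after adjustment. SUPT3H had r = 0.500 with the actin measure (permutation p = 0.0328, adjusted 0.0739), and CBFB had r = -0.554 with the GAPDH measure (permutation p = 0.0172, adjusted 0.0672). Spearman's rho was 0.501 for the former (permutation p = 0.0361) and -0.521 for the latter (permutation p = 0.0283), each with an adjusted p of 0.108. Without increased ALP tumours 3 and 6 the former r was 0.486, and without increased ALP tumours 5 and 6 the latter was -0.725. Within normal ALP the former was -0.564 and the latter -0.887, and within increased ALP they were 0.402 and -0.181, so the SUPT3H relation to the actin measure did not hold its sign within the groups. RUNX2 with the GAPDH measure had r = -0.131 over all 18 tumours (permutation p = 0.603, adjusted 0.691), but -0.779 within normal ALP (exact permutation p = 0.0129, n = 9), with rho = -0.933 (exact permutation p = 0.00075, n = 9), and 0.110 within increased ALP (exact permutation p = 0.775, n = 9). Within normal ALP, RUNX2 and CBFB thus both ran against this measure, and its part in their relation was not tested.

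**Figure D3:**
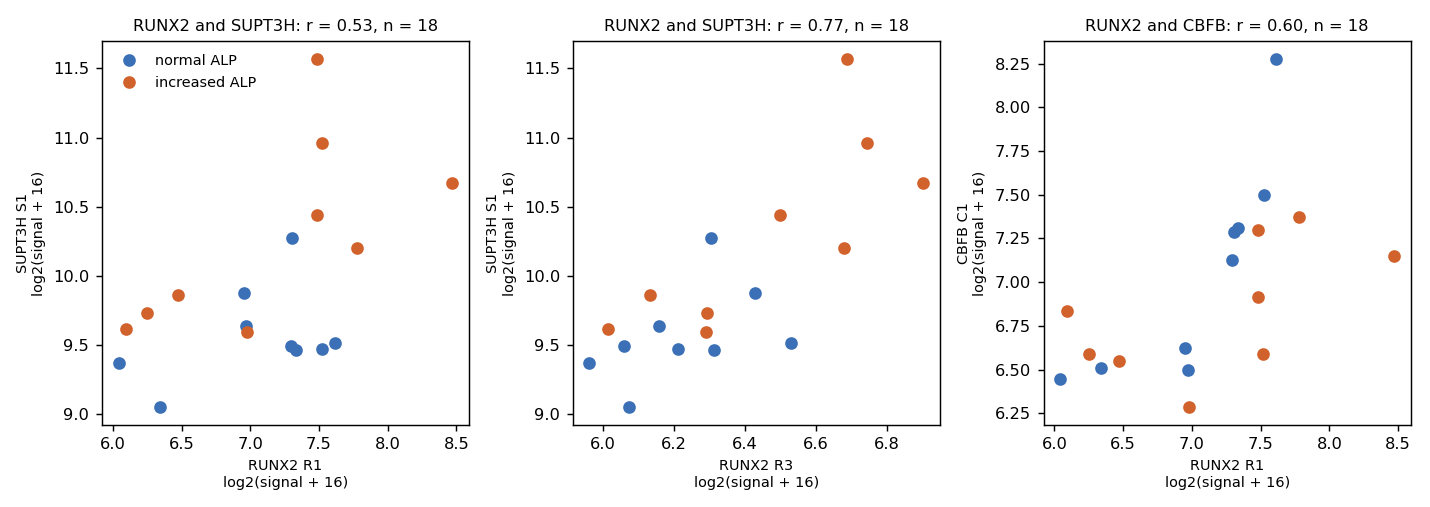
Each point is 1 tumour, on log2(signal + 16) axes and coloured by serum ALP group. SUPT3H against RUNX2 gives r = 0.53 for the brightest RUNX2 probe set (left) and r = 0.77 for R3 (middle), and CBFB against RUNX2 gives r = 0.60 (right) with normal ALP tumour 2 highest.

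To see which other genes followed RUNX2, its level at R1 was used as a covariate in limma, and each slope is in log2 units per log2 unit of RUNX2. Of 25750 probe sets, 653 (2.54%) were called at an adjusted p under 0.05, 420 with a positive slope (1.63%) and 233 with a negative slope (0.905%). Known RUNX2 target genes leaned upward: of 18 above the filter, 15 had positive slopes with a median over the 18 of 0.89, against a median of 0.01 over all probe sets. Of the 18, 4 were called with a positive slope and 1 with a negative one. RUNX2 and most of these targets are also markers of osteoblasts, and the osteoblast list moved with RUNX2 (8 of 9 slopes above 0). The part of osteoblast content in these slopes was not tested.

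Of the 5 called targets, IBSP had the steepest slope. IBSP, the integrin-binding sialoprotein that nucleates mineral, spanned 4.85 to 14.21 (median 11.98) over the 18 tumours, lowest in normal ALP tumour 3 and highest in increased ALP tumour 8. Its slope was 3.33 ± 0.81 (SE), with an adjusted p of 0.0388. ALPL, the alkaline phosphatase of bone and liver, spanned 6.50 to 13.57 (median 11.81) and was lowest in increased ALP tumour 2, where RUNX2 was also near its minimum. Its slope was 2.01 ± 0.48 (SE, adjusted p = 0.0378). PTH1R, the receptor for parathyroid hormone, spanned 6.72 to 11.89 and had a slope of 1.73 ± 0.42 (SE, adjusted p = 0.0378). FGFR3, a fibroblast growth factor receptor active in growing bone, was dim and had a slope of 0.35 ± 0.08 (SE, adjusted p = 0.0310). FGF18, a ligand of that receptor family, fell with RUNX2 at -0.38 ± 0.10 (SE, adjusted p = 0.0449).

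Several other targets had steep slopes that did not pass. MMP9, a gelatinase abundant in osteoclasts, had 2.25 (adjusted p = 0.0933), BGLAP, encoding osteocalcin, 1.57 (0.105), SMPD3, a sphingomyelinase needed for mineralization, 1.47 (0.0653), SPP1, encoding osteopontin, 1.36 (0.0864), and DMP1, an osteocyte matrix protein, 0.96 (0.0748). The chains of type I collagen, the bulk protein of bone, had slopes near 0: -0.21 for COL1A1 and 0.02 for COL1A2.

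**Figure D4:**
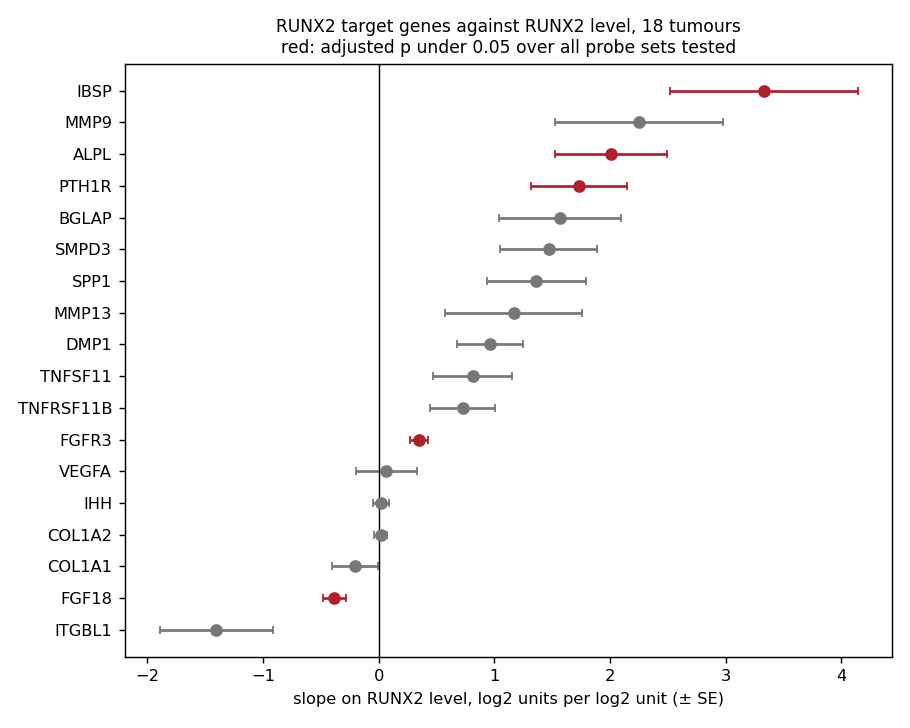
Slope of each of 18 RUNX2 target genes on the RUNX2 level, in log2 units per log2 unit with its SE, over 18 tumours. IBSP (3.33), ALPL (2.01), PTH1R (1.73) and FGFR3 (0.35) pass above 0, and FGF18 (-0.38) passes below 0. COL1A1 and COL1A2, both near the top of the signal scale, lie close to the zero line.

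These calls rest on a small margin. ALPL, IBSP and PTH1R each lost the call, with adjusted p up to 0.105, when any 1 of normal ALP tumours 3 and 5 or increased ALP tumours 1, 2, 4, 8 and 9 was left out. FGFR3 lost it without normal ALP tumour 3 or increased ALP tumours 1, 2, 4 or 5, and FGF18 kept it in only 5 of 18 such fits. FGF18 also lost its call with the GAPDH covariate and under quantile or 75th percentile scaling. With the RUNX2 level taken from any of its other 4 probe sets, the slopes of all 5 genes kept their sign and none passed.

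Of 9 co-activators and inducers of RUNX2 above the filter, 1 was called, against 2.54% of all probe sets. It was DLX6, a homeobox gene of osteoblast differentiation, with a slope of 1.19 ± 0.30 (SE, adjusted p = 0.0417). It spanned 5.20 to 9.23 over the tumours and was lowest in increased ALP tumour 2. Its paralogue DLX5 had a slope of 1.01 ± 0.39 (adjusted p = 0.152), and the co-activators CREBBP and ATF4 had 0.27 and -0.11 (adjusted p = 0.228 and 0.351). The median over the 9 was 0.13. DLX6 lost its call in 9 of the 18 fits that left out 1 tumour, those without normal ALP tumours 1, 2, 3 or 5 or increased ALP tumours 1, 2, 4, 8 or 9, and with the level from any of the other 4 RUNX2 probe sets.

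None of 14 antagonists and ubiquitin ligases was called in limma at an adjusted p under 0.05, 3 had an unadjusted p under 0.05 (20.9% of all probe sets did), and the median slope was 0.08. HDAC5, a histone deacetylase recruited to RUNX2, had 0.63 ± 0.20 (SE, adjusted p = 0.0879), and ZNF521, a zinc finger protein that represses RUNX2, had -0.74 ± 0.24 (adjusted p = 0.0947). HDAC3 and HEY1 had 0.22 and 0.17. Of the other RUNX family genes and their corepressors, RUNX1, RUNX3 and RUNX1T1 passed the filter, with slopes of -0.19, -0.03 and -0.38 and adjusted p of 0.283, 0.772 and 0.267.

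Among cell type markers, the osteoblast list had 8 of 9 slopes above 0 and 4 calls: ALPL, IBSP, PTH1R and PHEX, an osteocyte endopeptidase (1.44, adjusted p = 0.0488, called in 2 of the 18 fits that left out 1 tumour). PHEX also lost its call with the actin or the GAPDH covariate, under quantile or 75th percentile scaling, and without increased ALP tumours 3 and 6 together. All 6 osteoclast markers had positive slopes between 0.16 and 2.25 and none passed in limma, with 3 at an unadjusted p under 0.05 (20.9% over all probe sets). Of 7 cartilage markers, 2 had positive slopes, the median was -0.24 and 1 was called. That was COMP, a cartilage matrix protein, which fell with RUNX2 at -2.40 (adjusted p = 0.0317) and was highest in normal ALP tumour 3 (14.44). That call was lost without normal ALP tumour 3 or increased ALP tumours 1 or 4, and neither COMP nor PHEX passed with the level from any other RUNX2 probe set. All 9 endothelial markers had negative slopes between -1.25 and -0.02 and none passed, with 1 at an unadjusted p under 0.05 (20.9% over all probe sets).

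The genes most like RUNX2 were taken as the 5 of highest and the 5 of lowest moderated t over 18 tumours. The highest were POLR1A, the largest subunit of RNA polymerase I (slope 0.65 ± 0.09, SE, r = 0.876), the unnamed locus LOC479795 (0.45), ITGA10, a collagen-binding integrin chain (1.22), COL24A1, a fibrillar collagen (0.79), and POLR3E, a subunit of RNA polymerase III (0.48, r = 0.902). Their adjusted p-values were 0.0094 for the former 4 and 0.0129 for POLR3E. POLR1A ran from 5.95 in normal ALP tumour 3 to 7.77 in normal ALP tumour 2. The lowest were TAF10 (-0.54 ± 0.09, r = -0.857), GUCY1A2, a guanylate cyclase subunit (-1.33), FXYD6, a regulator of the sodium pump (-1.12), ADGRF5, an adhesion receptor of endothelium and lung (-0.97), and RARRES2, which encodes chemerin (-2.33). All 10 kept their calls in each of the 18 fits that left out 1 tumour. With the level taken from the other RUNX2 probe sets all 10 kept their sign, but only COL24A1 and GUCY1A2 passed at any of the 4, each at 1 of them.

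The SUPT3H level gave no calls. Of 25752 probe sets, 0% passed in limma, with a smallest adjusted p of 0.173, and 2342 had an unadjusted p under 0.05. The RUNX2 probe sets took different places in that ranking. R3 had a slope of 0.33 ± 0.07 (SE, unadjusted p = 0.000131, adjusted p = 0.210) and ranked 11 of 25752 by moderated t. All 4 RUNX2 probe sets above the filter had positive slopes, and the others were 0.54 ± 0.20 at R1, 0.34 ± 0.11 at R4 and 0.29 ± 0.10 at R2, with ranks of 424, 167 and 339. CBFB had a slope of 0.10 ± 0.18 there.

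The other genes most like SUPT3H were FGF1, a growth factor (0.86 ± 0.16, SE, adjusted p = 0.173), ATP2B1, a plasma membrane calcium pump (0.61), GARNL3 (0.60) and PCNX1 (0.42). FGF1 was highest in increased ALP tumour 9 (8.60), the tumour with the highest SUPT3H. The most opposed were FAM118B (-0.50 ± 0.09, SE, adjusted p = 0.173), PLAU, which encodes urokinase (-0.85), CMAS, an enzyme that activates sialic acid (-0.43), LOC482977 (-0.57) and NDUFA4L2, a mitochondrial protein induced by hypoxia (-1.55). None of these passed. With the actin measure as a covariate 5 probe sets passed, all negative: 3 of PTGES, the inducible prostaglandin E synthase (-1.67, -1.89 and -2.00), 1 of SEPTIN6 (-1.77) and 1 of FABP5 (-1.08). They were named after their values were seen.

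No other subunit of the SAGA complex passed on the SUPT3H level. Of 24 other subunits, 19 were above the filter, 12 had positive slopes on SUPT3H and 0 were called in limma, with a median slope of 0.03. At an unadjusted p under 0.05 there were 2 of the 19, near the 9.09% over all probe sets. Of the 18 RUNX2 targets, 12 had positive slopes on SUPT3H, with a median of 0.46, and 0 were called. At an unadjusted p under 0.05 there were 5 (9.09% over all probe sets). Among the SAGA subunits, the smallest p-values were those of SF3B5 (0.36 ± 0.11, SE, adjusted p = 0.395), SGF29, a histone reader (0.20 ± 0.07, adjusted p = 0.431), TAF10 (-0.27 ± 0.14, adjusted p = 0.607) and SF3B3 (0.42 ± 0.23, adjusted p = 0.608).

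On the RUNX2 level, 3 of the same 19 subunits were called, against 2.54% of all probe sets. TAF10, a histone-fold subunit shared with TFIID, fell at -0.54 (adjusted p = 0.0129), from 11.79 in increased ALP tumour 1 to 10.60 in increased ALP tumour 5, the tumour with most RUNX2. KAT2A, the acetyltransferase of the complex, rose at 0.46 ± 0.11 (SE, adjusted p = 0.0353), and TRRAP, its activator-binding subunit, rose at 0.63 ± 0.16 (adjusted p = 0.0412). KAT2A lost its call without normal ALP tumour 3 or increased ALP tumours 1, 2, 4 or 5 and under quantile or 75th percentile scaling. TRRAP lost it in 9 of the 18 fits that left out 1 tumour, those without normal ALP tumours 1, 5 or 6 or increased ALP tumours 1, 2, 4, 5, 6 or 8. The TRRAP call was also lost under 75th percentile scaling and without increased ALP tumours 3 and 6 together. TAF10 kept its call in all 18 fits that left out 1 tumour. With the RUNX2 level from any of its other 4 probe sets none of the 3 passed, and TRRAP turned to -0.48 at R4.

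The CBFB level was tied to the most genes. Of 25753 probe sets, 2163 (8.4%) were called, 1523 with a positive slope (5.91%) and 640 with a negative slope (2.49%). The closest was NUSAP1, a spindle protein of dividing cells (0.97 ± 0.11, SE, adjusted p = 0.00055), which ran from 6.37 in normal ALP tumour 3 to 8.44 in normal ALP tumour 2. NIP7, a ribosome assembly factor (1.11), RDH11, a retinal reductase (0.83), ZC3H14, an RNA-binding protein (0.91), and OXCT1, an enzyme of ketone use (1.13), followed with adjusted p of 0.00118 to 0.00119. The lowest were FXYD6 (-1.77), IGFBP4, an insulin-like growth factor binding protein (-0.42), MS4A2, a mast cell IgE receptor chain (-0.53), FBLN1, a matrix fibulin (-1.25), and ARHGAP17 (-0.80). These 10 kept their calls in each of the 18 fits that left out 1 tumour. The named positive genes were all highest, and the named negative ones all lowest, in normal ALP tumour 2, the tumour with most CBFB. Without that tumour 1917 probe sets were called, and only 985 of the 2163 were among them.

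RUNX2 targets were examined on the CBFB level too. Of the 18, 14 had positive slopes, with a median of 0.60. Above 0, 1 was called (5.91% over all probe sets), SMPD3 (1.92 ± 0.54, SE, adjusted p = 0.0363). Below it, 1 was called (2.49% over all probe sets), FGF18 (-0.52 ± 0.12, adjusted p = 0.0164). IBSP had 2.77 (adjusted p = 0.178) and ALPL 1.44 (adjusted p = 0.249). DLX6 (1.47, adjusted p = 0.0307) and TWIST1, a repressor of RUNX2 (0.72, adjusted p = 0.0278), were called above 0, and TAF10 (-0.60, adjusted p = 0.0163), ATXN7L1 (-0.31, adjusted p = 0.0376) and COMP (-3.20, adjusted p = 0.0114) below it. They were 1 of 9 co-activators, 1 of 14 antagonists, 2 of 19 SAGA subunits and 1 of 7 cartilage markers, against 8.4% of all probe sets called in either direction. With the GAPDH measure as a covariate 908 probe sets passed in place of 2163, and SMPD3, DLX6, TWIST1 and ATXN7L1 did not (adjusted p of 0.0741, 0.0549, 0.0972 and 0.183). SMPD3 was also lost without normal ALP tumours 1, 3, 5 or 6 or increased ALP tumours 1 or 7, DLX6 without normal ALP tumour 3 or increased ALP tumours 1 or 7, TWIST1 without normal ALP tumours 2 or 3, and ATXN7L1 without normal ALP tumours 2, 3 or 5 or increased ALP tumours 1, 4 or 7. Quantile scaling removed the calls of TWIST1 and ATXN7L1. Leaving out increased ALP tumours 3 and 6 together removed those of SMPD3 and ATXN7L1. ATXN7L1 was lost with the ALP group or the actin measure as a term too. RUNX2 R1 had a slope of 0.78 ± 0.24 on CBFB (adjusted p = 0.0539), and its other 3 probe sets above the filter had 0.12 to 0.21.

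Genes beside the SUPT3H and RUNX2 pair were examined next. Of the 5 protein-coding genes on each side, CDC5L, AARS2, ENPP4, ENPP5, RCAN2 and CYP39A1 were above the filter, while SPATS1, TCTE1 and CLIC5 were below it and TMEM151B had no probe set with a single symbol. Of the 6, 2 rose with RUNX2. CDC5L, a splicing factor and the next gene beyond SUPT3H, had a slope of 0.55 ± 0.13 (SE, adjusted p = 0.0328) and ran from 10.11 to 12.07, highest in increased ALP tumour 5. CYP39A1, an oxysterol hydroxylase, had 1.43 ± 0.27 (adjusted p = 0.0187). RCAN2, a calcineurin regulator, had -0.42 ± 0.17 (adjusted p = 0.175), and ENPP4, ENPP5 and AARS2 had 0.09, 0.11 and 0.01. On the SUPT3H level none of the 6 passed in limma and 1 had an unadjusted p under 0.05 (9.09% over all probe sets). The slopes were 0.46 ± 0.15 for CDC5L (adjusted p = 0.413) and 0.51 ± 0.42 for CYP39A1. CDC5L lost its call on RUNX2 without increased ALP tumours 1, 2 or 5, and CYP39A1 kept it in all 18 fits. With the RUNX2 level from its other 4 probe sets, CDC5L passed at R3 alone, and CYP39A1 at none, with a slope of 0.0035 at R4. On the level of CBFB, a gene of another chromosome, CYP39A1 was called above 0 (adjusted p = 0.0393) and RCAN2 below it (-0.83, adjusted p = 0.00853). CYP39A1 lost that call without normal ALP tumours 1, 3, 5 or 7 or increased ALP tumours 1, 4, 6 or 7. It was also lost with the ALP group, the actin measure or the GAPDH measure as a further term, and under quantile or 75th percentile scaling. RCAN2 lost its call with the GAPDH measure as a covariate.

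The window was then widened to 25 protein-coding genes on each side, a choice made after seeing the data. On the SUPT3H side 18 genes were above the filter, 16 had positive slopes on RUNX2 (51.3% over all probe sets), 6 (33.3%) were called above 0 (1.63% over all probe sets), and the median slope was 0.41. The called genes were SLC35B2, a transporter for sulfation (0.71), POLR1C, a subunit of RNA polymerases I and III (0.74), HSP90AB1, a cytosolic chaperone (0.60), XPO5, the exporter of precursor microRNAs (0.59), CDC5L (0.55) and POLH, a DNA repair polymerase (0.43). All of these 18 genes but YIPF3, VEGFA and NFKBIE were highest in increased ALP tumour 5, the tumour with most RUNX2. Without that tumour CDC5L, XPO5, POLH and HSP90AB1 lost their calls. On the RUNX2 side 13 were above the filter, 6 had positive slopes, CYP39A1 was called above 0 and ADGRF5 below it (-1.05), and the median slope was -0.08. On the SUPT3H level the medians were 0.30 and 0.02, with 16 of 18 and 9 of 13 slopes positive and 0 called. At an unadjusted p under 0.05 there were 11 and 0 positive slopes (1191 of 25752 over all probe sets). Whether the sides differ was not tested.

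POLR1C, SLC35B2 and ADGRF5 kept their calls in all 18 fits that left out 1 tumour. With the RUNX2 level from its other 4 probe sets, SLC35B2, ADGRF5 and POLH passed at none, and POLR1C, HSP90AB1 and XPO5 passed at R3 alone. SLC35B2 turned to -0.14 at R4. On the CBFB level, 5 of the 31 genes (8.4% over all probe sets) were called: CYP39A1, POLH (0.53) and CENPQ (1.01), a centromere protein, above 0, and RCAN2 and ADGRF5 (-1.36) below it. POLH lost that call without normal ALP tumours 2 or 3 or increased ALP tumours 1 or 7, and under quantile or 75th percentile scaling. HSP90AB1 lost its call without increased ALP tumour 5 (adjusted p = 0.0556), the tumour highest in RUNX2, POLR1C (11.60), SLC35B2 (8.83), HSP90AB1 (14.51) and CDC5L (12.07). XPO5 lost its call on RUNX2 without normal ALP tumours 1, 2 or 3 or increased ALP tumours 1, 2, 4, 5 or 9, and POLH without normal ALP tumours 1, 2, 3, 5 or 9 or increased ALP tumours 1, 2, 4, 5 or 9. Quantile scaling removed both of these calls. That of POLH was also lost under 75th percentile scaling and without increased ALP tumours 3 and 6 together. Around CBFB, of 31 genes above the filter among 49 neighbours, 13 had positive slopes on CBFB and 1 was called, against 8.4% of all probe sets. It was NAE1, a subunit of the NEDD8-activating enzyme (0.52 ± 0.12, SE, adjusted p = 0.0177), with a median slope of -0.05. NAE1 lost its call without normal ALP tumour 2 (adjusted p = 0.124) and with the GAPDH measure as a covariate.

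**Figure D5:**
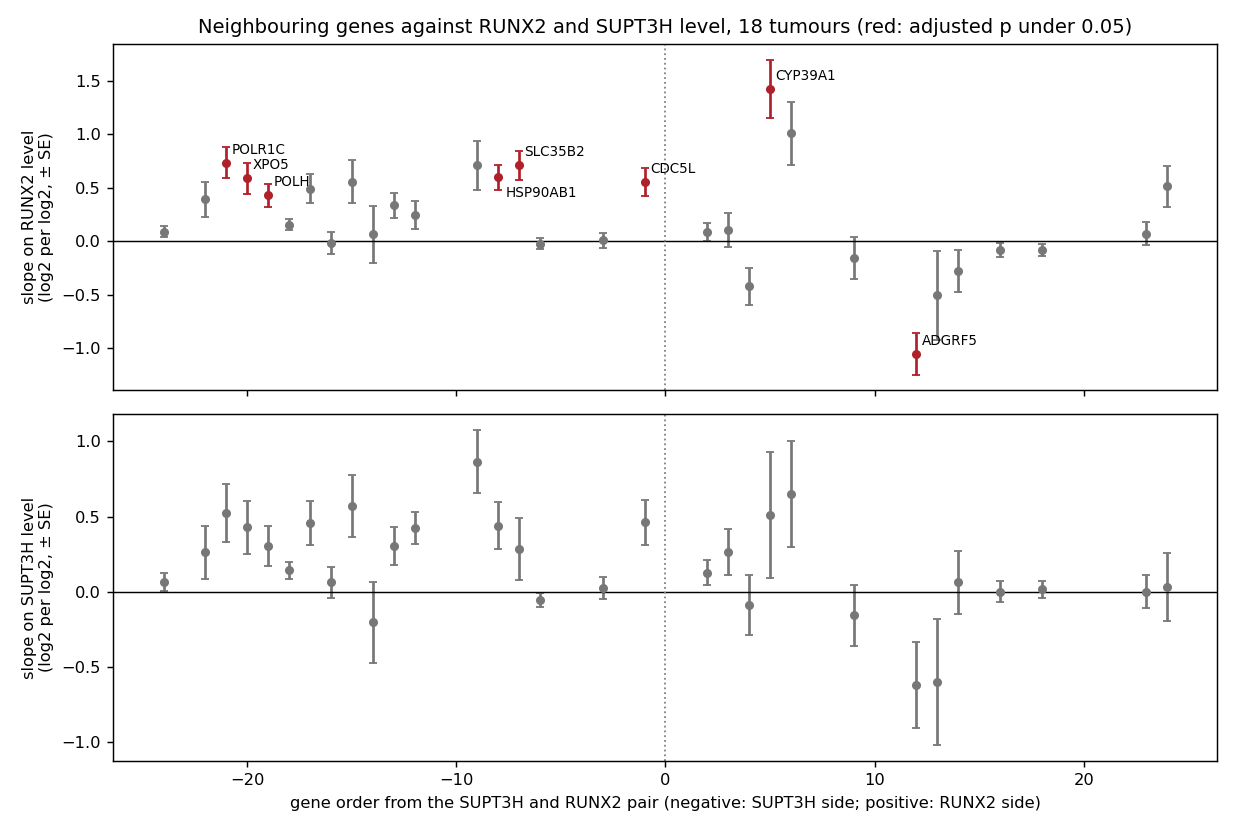
Slope of each neighbouring gene above the filter on the RUNX2 level (top) and on the SUPT3H level (bottom), in log2 units per log2 unit with its SE, against its place in gene order, negative on the SUPT3H side. On the SUPT3H side 16 of 18 slopes lie above 0 in both panels, with 6 calls in the top panel and 0 in the bottom one. Increased ALP tumour 5, highest in RUNX2, was also highest in most of these 18 genes.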

How the data were processed

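The deposited values are log2 signals of 1 array per tumour, as deposited by the authors. The submitters' processing notes list MAS5, with no role. The summary method and normalization are not given in the sources used here, and detection calls were not used. Values were turned back to signals, 16 was added and log2 was taken. Of 43035 probe sets, 111 controls were set aside, and 25754 passed the filter at the 40th percentile of the mean (6.15). Of the 42924, 29254 carried 1 gene symbol, 439 several and 13231 none listed.

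Tests used limma 3.58.1 in R 4.3.3 (lmFit, eBayes with trend, two-sided, Benjamini-Hochberg over all probe sets tested) with the ALP group or a gene's level as the term. That gene's own probe sets were left out. Correlations used 100000 permutations, or exact enumeration within groups, two-sided, adjusted over 9 relations. Plots used Python 3.11.15 with NumPy 2.4.6, pandas 2.3.3 and matplotlib 3.10.9. The fits were checked on simulated data. P-values measure the spread between these tumours.

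The genes and all lists were chosen with earlier results of these data known. Named genes were all probe sets of the 3 genes, the 5 highest and 5 lowest by moderated t, up to 4 genes of smallest p per list and the nearest neighbours, plus genes called. The alternatives were offsets of 1 and 64, other scalings and filters, other variance models, array weights, RNA quality covariates, the ALP group or the tissue number as a term, other probe sets and leaving out arrays. No 2 arrays were duplicates (highest correlation 0.982). Gene order and overlap were read from RefSeq's gene table (UU_Cfam_GSD_1.0). No coordinates are printed, since the build of the probe design is not given in the sources used here.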

Additional observations from a re-analysis of the deposited data

Results flagged for a closer look

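In 1 of the 20 groups of 9 tumours examined, a single tumour lay far from the others. RUNX2 R4 read 6.75 in normal ALP tumour 8, while the nearest other normal ALP tumour read 6.28, a gap of 0.499 of the group's range, above Dixon's critical value for 9 values. Chance gives about 1 such group in 20.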

How the results depend on the processing

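Leaving out 1 tumour at a time kept the SUPT3H difference between ALP groups at 0.56 to 0.81, that of RUNX2 at -0.03 to 0.26 and that of CBFB at -0.30 to -0.07, and r of RUNX2 with SUPT3H at 0.468 to 0.583. The SUPT3H difference was 0.014 at its dim probe set S3. The correlation was 0.677 with the actin covariate, 0.585 centred within ALP groups, 0.696 and 0.605 for R4 with S2 and S1, and 0.633 and 0.774 for R3 with the same pair, all now past the threshold. That threshold was not adjusted for the choice among pairings or settings. The correlation reversed to -0.269 and -0.0507 for R1 and R3 with the dim SUPT3H probe set.

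Probe sets called on the RUNX2 level (653) ranged from 100 without increased ALP tumour 1 to 1008 without normal ALP tumour 7, and were also moved over 1.5 times without normal ALP tumours 1 (412), 3 (236) and 5 (358) and increased ALP tumours 2 (174) and 4 (152). They were 320 with no filter and 1938 with array weights, and 0, 0, 210 and 2 with the level from R4, R5, R3 and R2 (unadjusted p under 0.05: 2686, 1508, 4203 and 3522). Of the 210, 115 were shared. Calls on SUPT3H (0) were 5 with the actin covariate, and 72 and 2 with the level from S2 and S3. Calls on CBFB (2163) ranged from 1302 without normal ALP tumour 3 to 2542 without normal ALP tumour 7, with 1419 without increased ALP tumour 7, 908 with the GAPDH covariate and 3353 with the level from C2. Without normal ALP tumour 2 there were 1917, which shared 985 with the 2163. The cause was not tested. Calls between ALP groups were 0 in limma under every setting run.

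The tissue numbers shared by both groups did not pair the tumours: correlations of same-numbered tumours ran from -0.164 to 0.270, 4 of 9 were above 0.1, and 0 of 9 normal ALP tumours correlated best with their own number. With the tissue number as a replicate block, r was 0.584. Same-numbered tumours then have mirrored values, which permutation cannot treat as independent, so no p-value is given. Calls in limma were 0 on RUNX2 and 0 on CBFB (unadjusted p under 0.05: 3129 and 3616).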
